A study of Mus musculus with 4 samples.

Results

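Myc-high and Myc-low myeloma cells are the cells at the upper and lower end of a ranking by Myc within each of 3 single-cell RNA libraries of a mouse myeloma. Cells with at least 2000 molecular identifiers (UMIs, each marking 1 captured transcript) and with Jchain under 5% of UMIs were ranked within their library by Myc UMIs over total UMIs and divided into 3 groups of equal size. The upper group is called Myc-high, the lower group Myc-low and the group between them Myc-middle. Of 781 cells in all, 435 were ranked, and 144 Myc-high cells were compared with 144 Myc-low cells, which makes 288 cells. By library these were 60 and 60 cells in bone marrow replicate 1, 36 and 36 in bone marrow replicate 2, and 48 and 48 in the lymph node. The groups are ranges of a continuous measure and not cell types.

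The study sorted CD138+ B220- cells, the surface profile of plasma cells, from C57/BL6 mice and counted polyadenylated transcripts at their 3′ end in droplets. It holds 1 library of wild-type bone marrow, 2 of bone marrow with VQ-D2 myeloma and 1 of a lymph node with VQ-D2 myeloma. The myeloma libraries hold donor-derived cells of recipient mice and carry 3 alleles: the transgene V{kappa}*MYC, Nras LSL Q61R/+ (an Nras allele with the change Q61R behind a stop that Cre removes) and IgG1-Cre. The wild-type library holds age-matched control cells without them. All myeloma cells carry the MYC transgene, so their ranking orders cells within a MYC-driven tumour and has no transgene-free arm. In wild type the Jchain limit would leave out 53 of 83 cells with at least 2000 UMIs, and not the others. Whether host plasma cells are among the ranked cells was not tested. All 3 myeloma libraries go back to 1 donor line, the labels do not say whether they come from different animals, and the labelled sort names no marker that separates donor from host cells. Each p below therefore reflects no more than how these 3 libraries vary, and that variation may be technical. Whether transgene transcripts were counted as Myc cannot be read from the tables.

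Myc is a transcription factor that binds DNA as a pair with Max, often at the E-box, and raises many genes needed for growth. Its best known targets make ribosomes: nucleolar factors that cut, modify and assemble ribosomal RNA, ribosomal proteins and translation factors. It also acts on nucleotide synthesis, the cell cycle and metabolism. Plasma cells are built to secrete antibody and depend on the chaperones of the endoplasmic reticulum (ER), and in multiple myeloma high MYC activity is a common feature of progression.

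Depth was low in every library. Total UMIs ran from 340253 to 1066884 per library and the median cell held 2021 to 4386 UMIs. No cell barcode was shared over 6 pairs of libraries. Ranked cells of the 3 myeloma libraries had a median of 5230, 3314 and 4796 UMIs, in the order bone marrow replicate 1, bone marrow replicate 2 and lymph node, which is kept throughout. Before thinning, the median Myc-low cell held 4724.5, 3312.5 and 4192 UMIs and the median Myc-high cell 5219, 3309.5 and 5255.5. Every ranked cell was thinned at random to 2000 UMIs before counts were summed. This does not even out cell size or quality, which were not tested, but gives each group in a library the same depth per cell. At that depth the median cell had 1205.5, 1194.5 and 1181 genes detected among Myc-low cells and 1221, 1209 and 1216.5 among Myc-high cells. Doublets were not called. Cells with more than 2 times their library's median UMIs numbered 0, 2 and 2 among Myc-low cells and 0, 0 and 2 among Myc-high cells.

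Markers of other cell types were near 0 in most groups, with 1 exception. Neutrophil markers, of which 12 are in the tables, held 680, 638 and 0 UMIs in the Myc-low cells, 6, 3 and 0 in the Myc-middle cells and 7, 0 and 1 in the Myc-high cells. These were 0.218% and 0.493% of the raw UMIs of the Myc-low cells in the bone marrow libraries. Nearly all came from 3 cells with UMIs of at least 2 neutrophil markers, all 3 of them Myc-low and in bone marrow. For each of the 9 other marker lists the share of raw UMIs was at most 0.00781% in any group. Those lists leave out Ctss, Cd68, Bst2 and Tcf4, which had UMIs in many ranked cells. Results were therefore also computed without the 4 cells that carried at least 2 markers of any other type, a setting added after the data were seen. The plasma cell markers Xbp1, Sdc1, Irf4, Jchain and Fkbp11 were present in every group, while Mzb1, a chaperone of antibody assembly, stood at 27.9 to 83.4 CPM (counts per 1000000 UMIs of the sum) in the bone marrow groups and at 929 to 1622 CPM in the lymph node groups.

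Myc (chromosome 15, 61985391 to 61990374, GRCm38) chose the cells, so its values are a description. The median Myc-low cell had 2.5, 2 and 2 Myc UMIs and the median Myc-high cell 12, 9 and 13. As a share of all UMIs the medians were 0.0574%, 0.0492% and 0.0477% in Myc-low cells and 0.200%, 0.245% and 0.232% in Myc-high cells, and the highest single cells reached 0.393%, 0.487% and 0.537%. The ranking thus separates cells by a handful of transcripts. Cells without a Myc UMI, all Myc-low, numbered 7, 5 and 4. The cells next to the lower limit had 0.0929% and 0.0934% in bone marrow replicate 1, 0.0914% and 0.0935% in replicate 2, and 0.0844% and 0.0847% in the lymph node. Next to the upper limit the cells just outside and just inside the Myc-high group had 0.152% and 0.152%, 0.187% and 0.188%, and 0.161% and 0.161%. Within 10% of the lower limit lay 24 of 180, 11 of 109 and 12 of 146 cells, and within 10% of the upper limit 25, 12 and 19 cells.

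In cells thinned to 2000 UMIs, Myc-low cells held 1.07 ± 0.82, 0.83 ± 0.81 and 0.85 ± 0.77 Myc UMIs (mean ± SD over cells). Myc-high cells held 4.18 ± 1.69, 5.75 ± 1.90 and 5.04 ± 1.83. The Myc-high mean was 3.92, 6.90 and 5.90 times the Myc-low mean. These ratios include the choice itself, since a cell with many Myc UMIs by sampling is placed in the Myc-high group. To leave that out, the UMIs of each cell were split at random in 2 portions, cells were ranked on 1 portion and Myc was read in the other, over 20 splits. The Myc level that took no part in the ranking was 1674, 2126 and 1945 CPM in the upper group and 963, 957 and 953 CPM in the lower group. The ratio was 1.73 (range over splits 1.51 to 1.94), 2.25 (1.80 to 2.55) and 2.00 (1.76 to 2.44). In every library a difference in Myc remained, well under the ratio between the chosen groups, and each portion holds fewer UMIs per cell than the whole ranking used.

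**Figure D1:**
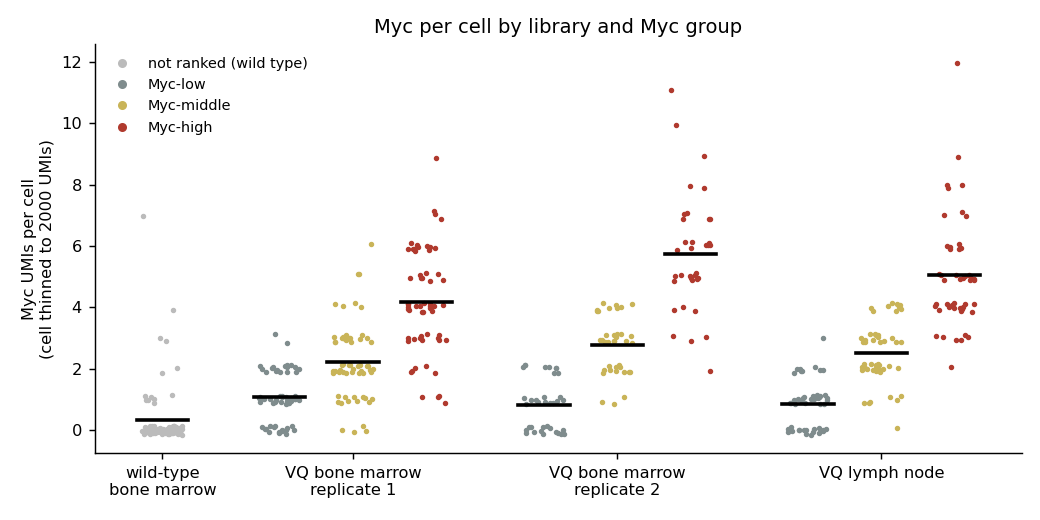
Myc UMIs per cell after thinning to 2000 UMIs (y axis), for the wild-type library and for the Myc-low, Myc-middle and Myc-high cells of each myeloma library; points are single cells, moved slightly at random so that equal counts can be seen, and bars are means. The means of the Myc-low cells lie between 0.83 and 1.07 UMIs and those of the Myc-high cells between 4.18 and 5.75, and the points of neighbouring groups overlap.

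The spread of Myc among ranked cells was set beside that of genes at a like level. The variance of thinned Myc UMIs over their mean, which is 1 under pure counting, was 1.33, 1.84 and 1.63. Genes with a mean within 1.5-fold of that of Myc numbered 84, 75 and 83 and had a median ratio of 1.20, 1.25 and 1.28. Myc stood at percentile 77.4, 90.7 and 86.7 of them. At least 1 Myc UMI was found after thinning in 160 of 180 ranked cells of bone marrow replicate 1 (88.9%, exact Clopper-Pearson 95% interval 83.4 to 93.1), in 94 of 109 of replicate 2 (86.2%, 78.3 to 92.1) and in 128 of 146 of the lymph node (87.7%, 81.2 to 92.5). In wild type, at the same thinned depth and without the limit on Jchain, 13 of 83 cells had one (15.7%, 8.61 to 25.3), at a mean of 0.337 UMIs. These intervals cover counting error only, and the part of free RNA in the Myc UMIs of any library was not tested.

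The comparison of Myc-high with Myc-low cells asks which other genes go with Myc from cell to cell among the ranked cells. Thinned counts were summed over the cells of each group and library, Myc was taken out, and the 6 sums were compared with edgeR's quasi-likelihood test with the library as a block. No gene passed the rule of a Benjamini-Hochberg adjusted p under 0.05 together with the same direction in all 3 libraries: of 2030 genes tested 0 were called higher (0%) and 0 lower (0%). The smallest adjusted p was 0.165. At an unadjusted p under 0.05 the edgeR test gave 71 genes higher (3.5%) and 75 lower (3.69%). DESeq2 also called 0 and 0, with 3 and 2 genes at an unadjusted p under 0.05. An exact sign-flip permutation test over 3 libraries cannot give a two-sided p below 0.25, so single shares below are given without one.

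Direction alone gave larger counts, which depended on the scaling. By summed UMIs, at equal thinned totals, 268 genes (13.2%) were higher and 222 (10.9%) lower in the Myc-high cells of all 3 libraries, with 352 genes tied in at least 1 library. By CPM these were 375 (18.5%) and 222 (10.9%), since the Myc-high sums without Myc are slightly smaller and a tie then counts as higher. By TMM-scaled levels they were 261 (12.9%) and 333 (16.4%), so that 43.9% of the genes with 1 direction were higher against 62.8% by CPM. Below, a gene is counted as higher or lower in all 3 libraries by summed UMIs, a choice made after the data were seen, to be read against 13.2% and 10.9%. The median log2 fold change of all genes tested was -0.00 in the fit, and its median standard error (SE) was 0.29. Among the most abundant genes (those in the upper 25% by CPM) the median SE was 0.19 and among the least abundant 0.39. Differences below these errors were not detectable at this depth, and differences of several errors were not called either. Fkbp11, with the smallest p of all genes tested, had a log2 fold change of -0.67 (SE 0.16). The absence of calls therefore does not exclude differences of that size. In the following, values are given for genes picked by rank within lists, none of which passed the test. The Myc-low sums without Myc held 119936, 71970 and 95959 UMIs and the Myc-high sums 119749, 71793 and 95758. Low CPM values, and small steps between them, therefore rest on few UMIs per sum.

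**Figure D2:**
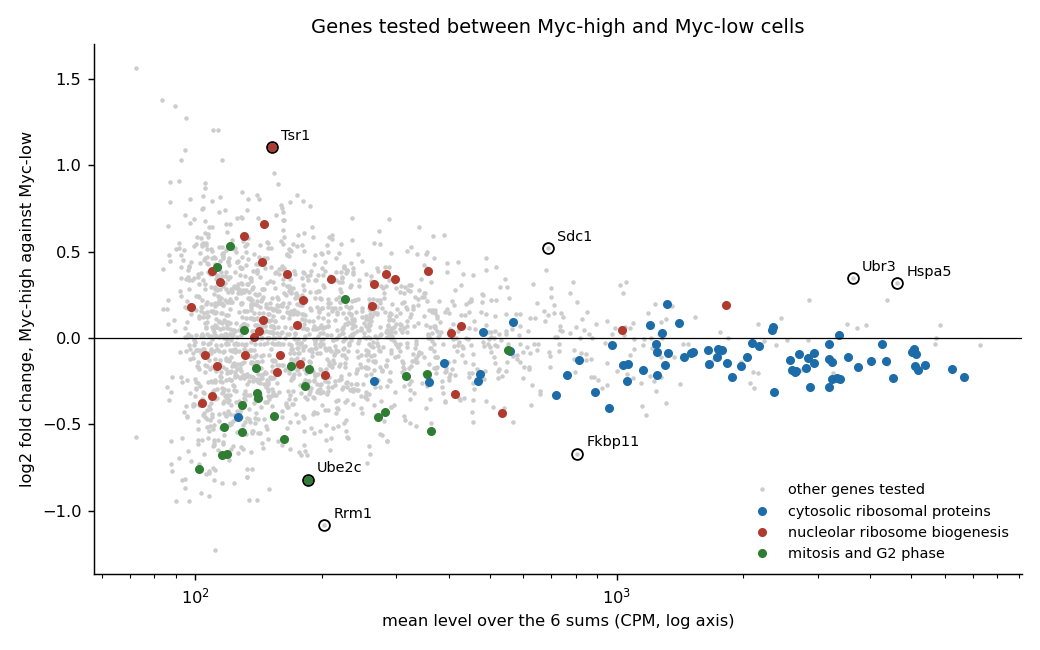
Log2 fold change of Myc-high against Myc-low cells (y axis) by mean CPM over the 6 sums (x axis, log scale) for the 2030 genes tested; colours mark members of 3 lists, and 7 genes are circled and named. Ribosomal protein genes lie mostly below 0 on the right, at small fold changes, and the mitotic genes lie mostly below 0 on the left, where the scatter of all genes is wide.

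Genes that encode the partners and regulators of Myc were too low to compare. Of 15 genes of the MAX network, 1 passed the filter on low counts: Fbxw7, which marks Myc for degradation, had a log2 difference of -0.23 (SE 0.34, edgeR adjusted p = 0.917). Max itself, the obligate partner, did not pass. It stood at 91.7, 41.7 and 62.5 CPM in Myc-low cells and at 50.1, 13.9 and 41.8 CPM in Myc-high cells.

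Nucleolar factors of ribosome biogenesis took a slightly larger share of UMIs in Myc-high cells. The 50 measured genes held 1.01%, 0.943% and 1.04% of UMIs in Myc-low cells and 1.09%, 1.07% and 1.16% in Myc-high cells. The ratio of Myc-high to Myc-low was 1.08, 1.14 and 1.12 (mean 1.11 ± 0.0288 SD, n = 3). The share was thus higher in every library, while the 95% counting intervals of the groups overlapped in each. Of 34 genes tested 6 were higher in all 3 libraries (17.6%, against 13.2% of all genes) and 0 lower, with 7 tied in at least 1 library. By CPM 11 were higher (32.4%, against 18.5%), and by TMM-scaled levels 6 were higher (17.6%, against 12.9%) and 2 lower (5.88%, against 16.4%). The median log2 fold change of the list was 0.09, against -0.00 over all genes tested, and 0.15 without bone marrow replicate 1 and 0.16 without the lymph node.

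Tsr1, an assembly factor of the small ribosomal subunit, was the member with the smallest p. It stood at 117, 55.6 and 104 CPM in Myc-low cells, at 133, 81.2 and 150 in Myc-middle cells and at 234, 195 and 209 in Myc-high cells (log2 1.11, SE 0.31, edgeR adjusted p = 0.291). The Myc-high and Myc-low values did not overlap and the Myc-middle value lay between them in each library, though levels this low rest on few UMIs per sum. Npm1, nucleophosmin, an abundant nucleolar protein, stood at 1809, 1612 and 1574 CPM in Myc-low and at 1887, 2020 and 1984 CPM in Myc-high cells (log2 0.19, SE 0.11, edgeR adjusted p = 0.732). Ncl, nucleolin, was split between libraries, with 942, 834 and 1198 CPM in Myc-low and 969, 1114 and 1107 CPM in Myc-high cells. Gnl3, nucleostemin, was at log2 -0.44 (SE 0.19, edgeR adjusted p = 0.627), opposite in sign to the list. The other genes higher in all 3 libraries, named after their values were seen, were Polr1c (log2 0.66), a subunit of RNA polymerases I and III, Nop10 (0.39), of the particles that modify ribosomal RNA, Nolc1 (0.37) and Ebna1bp2 (0.37).

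Ribosomal protein genes took a smaller share of UMIs in Myc-high cells. The 81 cytosolic ribosomal protein genes held 18.8%, 17.9% and 18.8% of UMIs in Myc-low cells, 18.7%, 17.8% and 18.6% in Myc-middle cells and 17.8%, 16.9% and 17.0% in Myc-high cells. The ratio of Myc-high to Myc-low was 0.948, 0.943 and 0.904 (mean 0.932 ± 0.0241 SD, n = 3). In each library the Myc-middle share lay between the other shares and close to that of the Myc-low cells, and the counting intervals of Myc-high and Myc-low did not overlap. Of 77 genes tested 34 were lower in all 3 libraries (44.2%, against 10.9% of all genes) and 1 higher (1.3%, against 13.2%). By TMM-scaled levels these were 38 (49.4%, against 16.4%) and 1. The median log2 fold change was -0.14, and 68 of the 77 values were below 0. In single cells the share varied far more than between groups: the median cell had 19.0%, 18.5% and 18.6% among Myc-low cells, within 8 to 26.2%, 4.75 to 23.4% and 11.8 to 28.3%, and 17.6%, 16.6% and 16.9% among Myc-high cells, within 13.6 to 23.5%, 12.8 to 19.95% and 11.1 to 21.7%.

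Rps10, of the small subunit, stood at 2560, 2779 and 2459 CPM in Myc-low and 2255, 1839 and 2256 CPM in Myc-high cells (log2 -0.31, SE 0.10, edgeR adjusted p = 0.509). It was lower in each Myc-high group than in the Myc-low group of the same library. The gene higher in all 3 libraries was Rps28, named after its values were seen (log2 0.20, SE 0.12). Ribosomal protein genes have many processed pseudogenes, and how reads shared with them were counted is not given in the sources used here. Over 10 other ways of choosing cells or summing counts, those without cells carrying other markers included, the ratio was below 1 in 30 of 30 library values (0.888 to 0.994). These values re-use the same 3 libraries and largely the same cells, so they are not independent.

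Other translation lists had summed shares near even or split between libraries. The 48 translation factors had ratios of 1.01, 1.04 and 1.02. Of 39 tested 9 were higher in all 3 libraries (23.1%, against 13.2% of all genes) and 2 lower (5.13%, against 10.9%). Eif4e, which binds the mRNA cap, stood at 142, 69.5 and 62.5 CPM in Myc-low and 184, 195 and 146 CPM in Myc-high cells (log2 0.80, SE 0.33, edgeR adjusted p = 0.627). Its inhibitor Eif4ebp1 stood at 283, 347 and 313 CPM in Myc-low and 209, 181 and 219 CPM in Myc-high cells (log2 -0.63, SE 0.25, edgeR adjusted p = 0.609). Cap binder and inhibitor thus had opposite signs in each library, and neither passed the test. Mitochondrial ribosomal proteins had ratios of 0.972, 1.01 and 1.06, with Mrpl28 at log2 0.96 and Mrps26 at 0.85. Aminoacyl tRNA synthetases had ratios of 0.983, 1.11 and 0.923, with Wars at log2 0.89 and Farsb at -0.66.

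**Figure D3:**
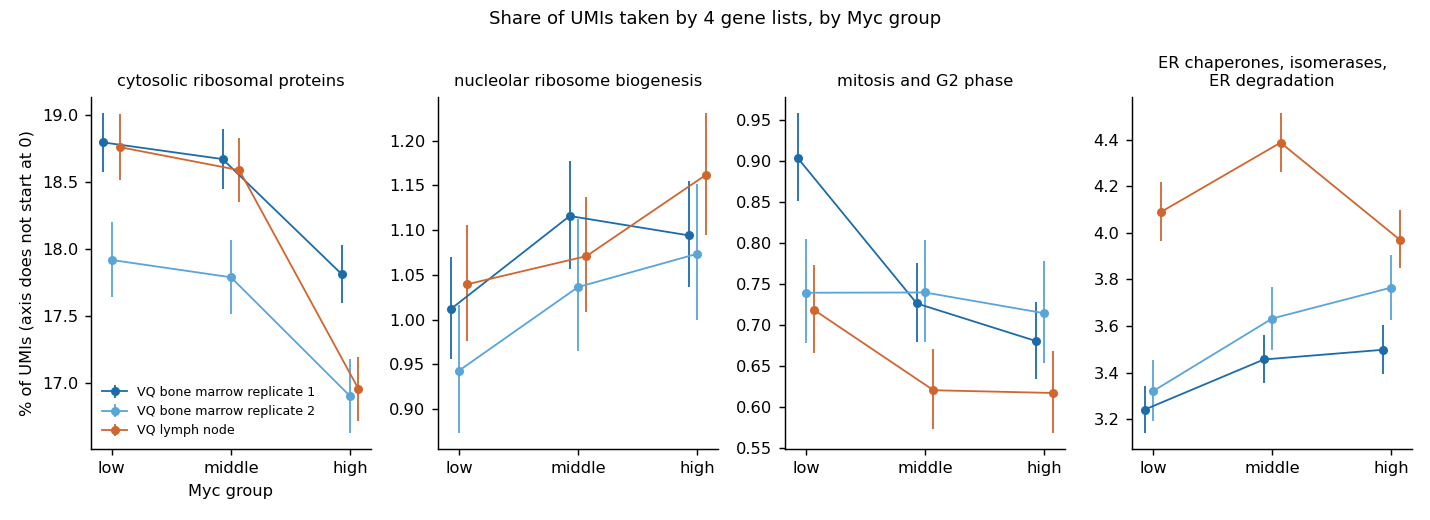
Share of UMIs (y axis, in percent, not starting at 0) taken by 4 gene lists in the Myc-low, Myc-middle and Myc-high cells of each myeloma library; bars are exact 95% binomial intervals and cover counting error only. Ribosomal protein shares of Myc-high cells, 16.9 to 17.8%, lie below those of Myc-low cells, 17.9 to 18.8%, in every library, while the nucleolar shares lie the other way with overlapping intervals.

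Genes of cell division took a smaller share of UMIs in Myc-high cells. The 74 measured genes of mitosis and G2 phase held 0.903%, 0.739% and 0.718% of UMIs in Myc-low cells and 0.680%, 0.714% and 0.617% in Myc-high cells. The ratios were 0.753, 0.966 and 0.859 (mean 0.859 ± 0.107 SD, n = 3), and the counting intervals of the groups were apart in bone marrow replicate 1 only. Of 25 genes tested 10 were lower in all 3 libraries (40%, against 10.9%) and 2 higher (8%, against 13.2%), and by TMM-scaled levels 13 (52%, against 16.4%) and 2. The median log2 fold change was -0.35, and -0.20 without bone marrow replicate 1, the library of the lowest ratio. Among cells at or under their library's median of cycle UMIs, which are cells kept for low counts of these very genes, only 3 of the genes could be tested and the ratios were 0.855, 1.20 and 0.957.

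Ube2c, a ubiquitin-conjugating enzyme that drives exit from mitosis, stood at 283, 236 and 177 CPM in Myc-low and 134, 167 and 115 CPM in Myc-high cells (log2 -0.82, SE 0.28, edgeR adjusted p = 0.509). Hmgb2, a chromatin protein of dividing cells, stood at 450, 514 and 302 CPM in Myc-low and 242, 390 and 282 CPM in Myc-high cells (log2 -0.54, SE 0.22, edgeR adjusted p = 0.627). Top2a, the topoisomerase that untangles chromosomes, was at 325, 292 and 302 CPM in Myc-low and 192, 279 and 240 CPM in Myc-high cells (log2 -0.46, SE 0.24, edgeR adjusted p = 0.699). All 3 were lower in each Myc-high group. Mki67, a proliferation marker, did not pass the filter and was split, with 83.4, 69.5 and 93.8 CPM in Myc-low and 142, 181 and 52.2 CPM in Myc-high cells.

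Summed shares of genes of S phase and nucleotide supply held no common direction across libraries. The S phase list had ratios of 0.936, 0.985 and 1.11. Of 23 genes tested 6 were higher in all 3 libraries (26.1%, against 13.2% of all genes) and 2 lower (8.7%, against 10.9%). At an unadjusted p under 0.05 in the edgeR test, 3 genes of the S phase list were lower and 1 was higher. Rrm1, the large subunit of ribonucleotide reductase, which makes deoxyribonucleotides, had the lowest log2 fold change of that list. It stood at 258, 278 and 292 CPM in Myc-low, 159, 162 and 310 in Myc-middle and 134, 97.5 and 157 in Myc-high cells (log2 -1.09, SE 0.28, 95% interval -1.65 to -0.52, edgeR adjusted p = 0.165). Myc-high values lay below Myc-low values in all libraries, without overlap. Rfc4, of the clamp loader, was split between libraries (log2 -0.65, SE 0.30). Among genes of nucleotide and polyamine synthesis, Nme2, a nucleoside diphosphate kinase, was lower in each Myc-high group (log2 -0.27, SE 0.12, edgeR adjusted p = 0.627). Odc1, the rate-limiting enzyme of polyamine synthesis and a textbook Myc target, did not pass the filter and stood at 50.03, 97.3 and 73.0 CPM in Myc-low and 50.1, 13.9 and 20.9 CPM in Myc-high cells. Of the chaperonin and heat shock targets, Cct6a had a log2 fold change of 0.46 (SE 0.19) and Hspd1 of 0.63 (SE 0.29), both higher in all 3 libraries (edgeR adjusted p = 0.627 for both).

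Hspa5 (chromosome 2, 34771970 to 34777547), which encodes BiP, the main chaperone of the ER, was among the genes of smallest p. It stood at 3769, 3432 and 5002 CPM in Myc-low, 4563, 3830 and 5697 in Myc-middle and 4852, 4624 and 6099 in Myc-high cells. The level followed the order of the groups in every library. The log2 fold change was 0.32 (SE 0.08, 95% interval 0.16 to 0.48, edgeR adjusted p = 0.165), and 0.36, 0.43 and 0.29 within the single libraries. It met the call with library totals in place of TMM (edgeR adjusted p = 0.0223), with cells of at least 3000 UMIs (0.0485) and without the lymph node (0.00147). The last call was lost when the 4 cells with markers of other types were left out as well (log2 0.33, edgeR adjusted p = 0.925). Over all alternatives its adjusted p ran from 0.00147 to 0.999, the highest with DESeq2, and its log2 fold change from 0.16 to 0.41.

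**Figure D4:**
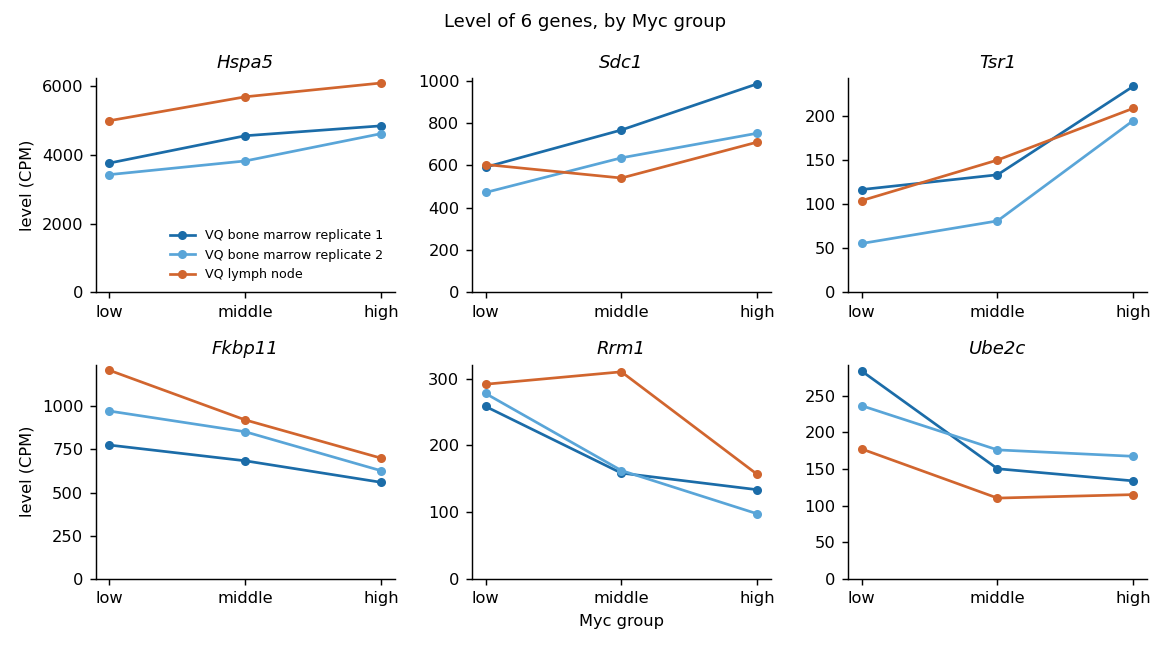
Level in CPM (y axis, from 0) of 6 genes in the Myc-low, Myc-middle and Myc-high cells of each myeloma library; each point is 1 sum of thinned cells, with no error bar. Hspa5, Sdc1 and Tsr1 are higher and Fkbp11, Rrm1 and Ube2c lower in Myc-high than in Myc-low cells of all 3 libraries, and none of the 6 passed the test.

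Hspa5 is a standard target of the unfolded protein response through the ER stress element, a bipartite motif read by ATF6. The motif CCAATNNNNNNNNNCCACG was searched on both strands in the 250 bases before each start of the RefSeq promoter windows (GRCm38.p6). It was found in 37 of 32851 windows (0.113%), of which 9 belong to genes tested here, all 9 on the ER lists. Stretches of 4 of them are shown, chosen after the values were seen, since Hspa5 and Canx had log2 fold changes above 0 and Derl3 and Syvn1 below 0. Capitals mark the fixed bases of the motif, which reads on the opposite strand in Derl3. The stretches lie at chr2:34771975-34772089 (Hspa5, plus strand), chr11:50325750-50325868 (Canx, minus strand), chr10:75893192-75893310 (Derl3, plus strand) and chr19:6046482-6046575 (Syvn1, plus strand). The position given above for Hspa5, from GENCODE, begins at 34771970, which is before its stretch. The RefSeq start used for the windows thus differs from the GENCODE start of that gene.
Hspa5: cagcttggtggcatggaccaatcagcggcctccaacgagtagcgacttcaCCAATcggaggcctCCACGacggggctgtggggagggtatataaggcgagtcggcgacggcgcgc
Canx: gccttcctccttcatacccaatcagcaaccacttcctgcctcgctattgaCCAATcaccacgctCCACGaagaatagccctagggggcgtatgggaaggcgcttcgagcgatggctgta
Derl3: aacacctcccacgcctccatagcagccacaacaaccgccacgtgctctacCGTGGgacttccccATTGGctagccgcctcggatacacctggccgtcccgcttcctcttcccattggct
Syvn1: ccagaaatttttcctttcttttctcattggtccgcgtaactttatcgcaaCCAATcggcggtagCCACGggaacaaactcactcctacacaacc

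The 9 genes with this motif did not share a direction. Log2 fold changes were 0.32 for Hspa5, 0.10 for Canx (calnexin, a lectin chaperone), 0.08 for Creld2, 0.08 for Calr (calreticulin), 0.06 for Hsp90b1 (the chaperone GRP94) and 0.04 for Pdia6 (a disulfide isomerase). They were -0.21 for Dnajc3, a co-chaperone of BiP, -0.40 for Derl3 and -0.51 for Syvn1, which both serve ER-associated degradation. Those above 0 numbered 6 and those below 0 numbered 3. Hspa5 and Pdia6 were higher in all 3 libraries and Dnajc3 lower in all 3. A match of letters is a description of the window and shows no binding.

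The wider ER lists were mixed. The 36 measured ER chaperones, disulfide isomerases and degradation factors held 3.24%, 3.32% and 4.09% of UMIs in Myc-low cells. In Myc-high cells they held 3.50%, 3.77% and 3.97%, a share higher in the bone marrow libraries and lower in the lymph node. The counting intervals of Myc-high and Myc-low were apart in both bone marrow libraries and overlapped in the lymph node. Of 33 tested, 6 were higher in all 3 libraries (18.2%, against 13.2% of all genes) and 3 lower (9.09%, against 10.9%). P4hb, a protein disulfide isomerase, stood at 1434, 1376 and 1605 CPM in Myc-low and 1311, 1073 and 1065 CPM in Myc-high cells (log2 -0.38, SE 0.13, edgeR adjusted p = 0.509). Its values in Myc-high cells were below those in Myc-low cells without overlap. The translocon, signal peptidase and glycosylation list had ratios of 1.02, 1.02 and 0.907, and Krtcap2, a subunit of the oligosaccharyltransferase, had a log2 fold change of -0.26 (SE 0.10) and Sec11c, of signal peptidase, of -0.25 (SE 0.13). The integrated stress response and serine pathway list had ratios of 0.926, 1.12 and 0.891, with Psph, the last enzyme of serine synthesis, at log2 -0.94 (SE 0.34) and Aldh18a1, of proline synthesis, at -0.61 (SE 0.38).

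Plasma cell identity genes also held both signs. Fkbp11 (chromosome 15, 98724366 to 98728198), a prolyl isomerase of the secretory pathway, had the smallest p of all genes tested. It stood at 775, 973 and 1209 CPM in Myc-low, 684, 853 and 921 in Myc-middle and 560, 627 and 700 in Myc-high cells. All Myc-high values were below all Myc-low values and the Myc-middle value lay between them in each library. Its log2 fold change was -0.67 (SE 0.16, 95% interval -0.99 to -0.35, edgeR adjusted p = 0.165). It met the call with cells of at least 3000 UMIs (edgeR adjusted p = 0.0485, over all alternatives 0.0485 to 0.999) and its log2 fold change ran from -0.76 to -0.34.

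Sdc1 (chromosome 12, 8771323 to 8793715), which encodes the CD138 used in the sort, stood at 592, 472 and 604 CPM in Myc-low, 768, 636 and 541 in Myc-middle and 985, 752 and 710 in Myc-high cells. It was higher in each Myc-high group, with the smallest step in the lymph node, and no Myc-high value was below a Myc-low value (log2 0.52, SE 0.17, edgeR adjusted p = 0.509). Jchain, the joining chain of polymeric antibody, was even among the ranked cells: 5920, 5072 and 5930 CPM in Myc-low and 6405, 5850 and 5159 CPM in Myc-high cells (log2 0.00, SE 0.08, 95% interval -0.16 to 0.16), though cells of high Jchain had been left out by the rule. That limit left out 2 cells of bone marrow replicate 1. Without it the edgeR adjusted p of Jchain was 0.0200, with no direction shared by all 3 libraries. Over all alternatives its log2 fold change ran from -0.46 to 0.14. Xbp1, the transcription factor of the secretory program, stood at 4386, 3932 and 3397 CPM in Myc-low and 4292, 6574 and 3634 CPM in Myc-high cells, so that its log2 difference of 0.22 (SE 0.09, edgeR adjusted p = 0.627) came mainly from bone marrow replicate 2. Without that replicate it was -0.01. Irf4, a factor that myeloma cells depend on and that acts in a loop with Myc, stood at 300.2, 264 and 292 CPM in Myc-low and 509, 543 and 209 CPM in Myc-high cells. It was higher with Myc in both bone marrow libraries and lower in the lymph node (log2 0.48, SE 0.23, edgeR adjusted p = 0.655). Prdm1, the master regulator of plasma cells, did not pass the filter, at 27.8 to 83.4 CPM in Myc-low and 41.8 to 94.0 CPM in Myc-high cells.

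**Figure D5:**
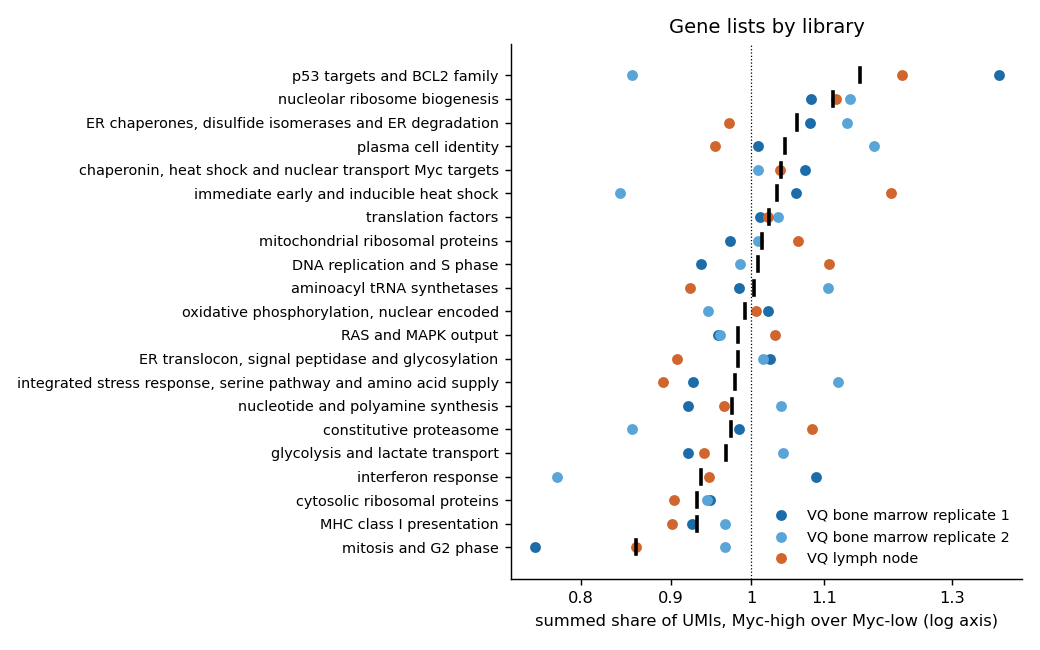
Summed share of UMIs in Myc-high over Myc-low cells (x axis, log scale) for the 21 lists with at least 6 genes tested; points are the 3 myeloma libraries and short bars their means. Points of cytosolic ribosomal proteins (0.904 to 0.948), mitosis and G2 phase (0.753 to 0.966) and MHC class I presentation (0.901 to 0.966) lie below 1 in all libraries, and those of nucleolar ribosome biogenesis (1.08 to 1.14), chaperonin and transport targets (1.01 to 1.07) and translation factors (1.01 to 1.04) above 1.

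Genes of RAS and MAPK output were split between libraries. Nras, the altered gene of this model, stood at 275, 236 and 281 CPM in Myc-low and 342, 334 and 324 CPM in Myc-high cells (log2 0.29, SE 0.23, edgeR adjusted p = 0.845). The counts are per gene and do not part its wild-type from its altered allele. The list's ratios were 0.957, 0.960 and 1.03 over 29 genes. Of 7 tested 1 was higher in all 3 libraries (14.3%, against 13.2% of all genes) and 2 lower (28.6%, against 10.9%). Among immediate early genes Btg2, an antiproliferative factor, was higher (log2 0.59, SE 0.21, edgeR adjusted p = 0.509) and Jun, a subunit of AP-1, lower (-0.49, SE 0.23, edgeR adjusted p = 0.627) in each Myc-high group.

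Genes of antigen presentation by MHC class I held both signs. The 19 listed genes held 0.639%, 0.575% and 1.35% of UMIs in Myc-low and 0.592%, 0.556% and 1.21% in Myc-high cells (ratios 0.926, 0.966 and 0.901), with overlapping counting intervals in each library. Of 11 tested 2 were lower in all 3 libraries (18.2%, against 10.9% of all genes) and 1 higher (9.09%, against 13.2%). Of the 11 fold changes 4 were above 0. B2m, the shared light chain, stood at 2218, 2293 and 5867 CPM in Myc-low and 2079, 1880 and 5242 CPM in Myc-high cells (log2 -0.21, SE 0.09, edgeR adjusted p = 0.627). Erap1, which trims peptides for MHC class I, went the other way (log2 1.20, SE 0.41, edgeR adjusted p = 0.509), at 41.7, 97.3 and 62.5 CPM in Myc-low and 142, 181 and 136 CPM in Myc-high cells. MHC class II was near the filter, with Cd74 alone tested (log2 -0.39, SE 0.44). Interferon response ratios were 1.09, 0.775 and 0.946, with Ly6e at log2 -0.21 (SE 0.10) and Isg20 at -0.42 (SE 0.28).

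Lists of protein turnover, energy and survival were split between libraries. The constitutive proteasome had ratios of 0.983, 0.855 and 1.08, and its regulatory subunits Psmd3 and Psmd12 had log2 fold changes of 0.54 (SE 0.24) and -0.66 (SE 0.29). Nuclear-encoded oxidative phosphorylation had ratios of 1.02, 0.945 and 1.01. Of 68 genes tested 11 were higher in all 3 libraries (16.2%, against 13.2% of all genes) and 6 lower (8.82%, against 10.9%). Among the higher were Ndufs1 of complex I at log2 0.90 (SE 0.42) and Uqcrc2 of complex III at 0.61 (SE 0.28). Glycolysis had ratios of 0.920, 1.04 and 0.940, with Pfkp, a phosphofructokinase, at log2 -0.61 (SE 0.30) and Taldo1, of the pentose phosphate path, at -0.55 (SE 0.29). Among p53 targets and BCL2 family genes (ratios 1.38, 0.855 and 1.22), Mcl1, the survival factor on which myeloma cells rely, stood at 825, 1028 and 969 CPM in Myc-low and 1328, 766 and 1399 CPM in Myc-high cells (log2 0.33, SE 0.15, edgeR adjusted p = 0.627), and Ccng1 had a log2 fold change of 0.26 (SE 0.34).

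Whether the Myc-high effect differed between lymph node and bone marrow was tested with an interaction term, which has 1 residual degree of freedom. Of 2030 genes 0 passed an edgeR adjusted p under 0.05, 85 had an unadjusted p under 0.05, and the smallest adjusted p was 0.124. A difference between tissues was not shown. With 1 lymph node library, tissue cannot be told apart from library, so the test cannot decide this for a difference of any size.

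The E-box CACGTG, a palindrome that reads alike on both strands, was searched in the 250 bases before each start in RefSeq. It was present in 1978 of 32851 windows (6.02%). Of 2030 genes tested 1592 had a window, and 192 of these held the motif in at least 1 window (12.1%). This is a share of genes, which can have several windows, and is not comparable with the share of windows. Genes with it had a median log2 fold change of 0.02 and genes without it of -0.01. By CPM, where ties can count as higher, 21.9% against 18.0% were higher and 11.98% against 10.86% lower in all 3 libraries. On the nucleolar list 1 of 30 matched genes held the motif and on the ribosomal protein list 4 of 57. No match says only that these letters are not in this window.

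Leaving out 1 library changed the calls in 1 case. Without the lymph node, 3 genes were called higher (Neat1, Hspa5 and Ubr3) and 9 lower (S100a8, S100a9, Lcn2, Camp, Ngp, Chil3, Anxa1, Fth1 and Tmsb4x), named after their values were seen. Most of the 9 are genes of neutrophils, whose marker UMIs in the Myc-low bone marrow cells are given above. With the 4 cells carrying other markers also left out, edgeR called 0 and 0 (36 and 46 at an unadjusted p under 0.05, smallest adjusted p 0.925). Without bone marrow replicate 1 or replicate 2, 0 and 0 were called. With all 3 libraries and without those 4 cells, 0 and 0 were called (71 and 86 at an unadjusted p under 0.05, smallest adjusted p 0.0571).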

How the data were processed

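Single-cell 3′ RNA libraries came from sorted cells of wild-type and VQ-D2 mice. The deposited tables hold unscaled UMI counts, which the authors limited to barcodes past a knee filter. The submitters' processing notes name mm10 as the build, and the aligner and annotation are not given in the sources used here. Each of 4 tables holds 24421 genes.

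Cells were chosen, ranked and thinned as described above (Python 3.11.15, numpy 2.4.6, pandas 2.3.3, scipy 1.17.1), with ties in Myc broken at random. Cells were never replicates: thinned counts were summed per library and group. Sums were fitted with edgeR 4.0.16 in R 4.3.3 (TMM, filterByExpr, quasi-likelihood, library as block, 2 residual degrees of freedom, common biological coefficient of variation 0.0636), tested on simulated data. The fit also had 46.1 prior degrees of freedom, from variance shared across genes. Its p-values and intervals used both and so rest mainly on the shared variance. Adjusted p-values are Benjamini-Hochberg over all genes tested. The SE is the log2 fold change over the square root of F. DESeq2 1.42.0 was an alternative. CPM are counts per 1000000 UMIs of a sum without Myc. Pairing comes from the cells, since both groups of a pair share a library.

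The members and gene lists were chosen with earlier results of these data known. Where no gene of a list was called, the 2 of smallest p were named, beside Myc and 14 genes always given; others were named after their values were seen. Some genes under this rule are not reported here. Alternatives varied scaling, tool, filters, thinning, ranking, limits, cell choice, block and libraries. Positions are from GENCODE vM21 (GRCm38), in which 57 of 57 named genes were found.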

Additional observations from a re-analysis of the deposited data

How the results depend on the processing

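No gene was called in the comparison reported, and some alternatives called a few. With library totals 2 genes were higher (Hspa5, Ubr3) and 0 lower, with a second thinning 1 (Itga4) and 0, with at least 3000 UMIs per cell 1 (Hspa5) and 1 (Fkbp11), and with unthinned sums 0 and 1 (H2afx). Leaving out every cell with 2 markers of another type, shared markers included, removed 291 of 435 cells and gave 0 and 2 (Fth1, Jun) among 497 genes. Leaving out 1 library each gave 0 to 3 higher and 0 to 9 lower. Without the library block 0 and 0 were called (57 and 42 at an unadjusted p under 0.05), so the pairing changed no call. DESeq2, no filter on low counts, ranking on thinned Myc, the upper against the lower 25% or 50% of cells, no Jchain limit, cells low in cycle genes, and the trend over 3 groups (added after the data were seen) gave 0 and 0. Among these, 10 genes without the filter on low counts and 1 (Jchain) without the Jchain limit had an edgeR adjusted p under 0.05. They were not called because their direction was not shared by all libraries. Of 880 values of 50 named genes under alternatives, all drawn from the same libraries, 862 kept their sign.

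The median of the ribosomal protein list stayed between -0.17 and -0.09 and that of the mitotic list between -0.40 and -0.08, the latter over the 3 genes tested among cells low in cycle genes. The nucleolar median ran from -0.04, over the 7 genes tested with the filter that removed 291 cells, to 0.24. Depth limits all of these: the ranking rests on a median of 7, 4 and 6 Myc UMIs per ranked cell, and each library gives 1 pair.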

Other observations

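Some genes outside the lists, named after their values were seen, were among those of smallest p. Others differed in sign between the bone marrow libraries and the lymph node library. Ubr3, a ubiquitin ligase, stood at 3660, 3140 and 2668 CPM in Myc-low, 3813, 3586 and 3544 in Myc-middle and 4660, 4067 and 3613 in Myc-high cells of bone marrow replicate 1, bone marrow replicate 2 and lymph node. It followed the order of the groups in every library (log2 0.35, SE 0.09, edgeR adjusted p = 0.165). Neat1, a nuclear long noncoding RNA, stood at 58.4, 83.4 and 229 CPM in Myc-low and 276, 139 and 104 CPM in Myc-high cells, higher with Myc in both bone marrow libraries and lower in the lymph node (edgeR adjusted p = 0.780). Tmsb4x, which encodes an actin-binding peptide, went the opposite way in each, at 1117, 2376 and 542 CPM in Myc-low and 1002, 1045 and 804 CPM in Myc-high cells (edgeR adjusted p = 0.627). Without the lymph node all 3 genes were called, and with the 4 cells carrying markers of other types also left out none of them was (smallest edgeR adjusted p of any gene 0.925).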
